A study of Mus musculus with 12 samples.

Results

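Ak4, Nek7, Hrh1 and Eif4h are 4 of the 55385 genes measured by RNA-seq in whole brains of mice that received krill oil or water, with or without chronic unpredicted mild stress (CUMS). They were selected on their FPKM in the unstressed mice, in which all or most krill oil libraries differed from the water libraries, so the values of C_O and C_W are given as a description. The question was whether stressed mice had the same difference. All mice were wild-type male C57BL/6J mice, 8 weeks old at purchase. The C_W group received water, the C_O group received 5 weeks of krill oil by gavage (200 mg/kg daily), the MS_W group received water and 4 weeks of CUMS, and the MS_O group received both krill oil and CUMS. Each group had 8 mice, of which 3 were drawn at random for sequencing, and each brain gave 1 poly(A) library, so the 12 libraries are named by group and mouse number (C_W1, C_O15 and so on). Expression was given as FPKM, a fragment count divided by the exon length of the gene and by library size. All 4 genes passed the filter (an average FPKM of 0.1 or more) that left 21393 genes for testing.

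The 4 genes have unrelated roles. Ak4 encodes adenylate kinase 4, a mitochondrial matrix member of the family that interconverts adenine nucleotides and so sets the balance of AMP, ADP and ATP. Nek7 encodes a serine/threonine kinase of the NIMA-related family that acts in mitotic spindle formation and, in myeloid cells, binds NLRP3 during assembly of the inflammasome. Hrh1 encodes the histamine H1 receptor, a G protein-coupled receptor through which histamine promotes wakefulness in the brain and which sedating antihistamines block. Eif4h encodes a small RNA-binding protein that stimulates the helicase eIF4A when ribosomes are recruited to capped mRNA.

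The estimated counts summed to between 50912906 and 75678721 per library. A pair of libraries, C_O72 and MS_W95, was unlike the remaining 10. Their correlation with each other was 0.97 in log2(FPKM + 1), and with any other library at most 0.937, whereas the other 10 correlated with each other at 0.959 or more. The summed FPKM of 4 hindbrain markers (Hoxb5, Hoxc4, Hoxb8 and Slc6a5) was 61.6 in C_O72 and 22.1 in MS_W95 but at most 0.0614 in each of the other libraries, although the labels name whole brain for all of them. All 5 markers of neurons, astrocytes, oligodendrocytes, microglia and endothelium were above the listed floor of 0.0001 in every library. The values of the 4 genes are therefore given with and without C_O72 and MS_W95 where a result rests on them.

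RefSeq start-site windows (GRCm38.p6) were matched for all 4 genes, and the bases before the start that lie in no annotated exon of the gene are printed so that the proximal regulatory letters of genes chosen for the same contrast can be set side by side. They are written 5′ to 3′ on the gene's strand, and capitals mark matches on either strand to 4 motifs that were searched: the GC box GGGCGG, the CCAAT box CCAAT, the TATA box TATAAA and the E-box CACGTG. No 2 of these matches overlapped. The stretches are chr4:101419039-101419276 (plus strand) for Ak4, chr1:138619758-138619903 (minus strand) for Nek7, chr6:114397686-114397935 (plus strand) for Hrh1 and chr5:134639491-134639659 (minus strand) for Eif4h. That of Nek7 lies within the annotated gene, between exons, because GENCODE places the first exon further upstream than RefSeq.
Ak4: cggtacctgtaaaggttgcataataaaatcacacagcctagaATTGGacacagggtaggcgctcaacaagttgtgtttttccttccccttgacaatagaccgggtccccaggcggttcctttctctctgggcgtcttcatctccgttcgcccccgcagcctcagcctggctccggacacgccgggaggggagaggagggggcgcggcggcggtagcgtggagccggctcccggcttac
Nek7: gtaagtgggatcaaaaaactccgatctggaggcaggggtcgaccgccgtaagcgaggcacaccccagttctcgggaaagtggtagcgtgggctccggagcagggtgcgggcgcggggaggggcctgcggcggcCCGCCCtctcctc
Hrh1: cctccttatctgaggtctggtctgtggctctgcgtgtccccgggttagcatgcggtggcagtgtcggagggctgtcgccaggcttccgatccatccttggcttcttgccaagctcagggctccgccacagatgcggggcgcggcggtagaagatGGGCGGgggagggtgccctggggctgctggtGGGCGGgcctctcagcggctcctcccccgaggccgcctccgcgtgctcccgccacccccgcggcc
Eif4h: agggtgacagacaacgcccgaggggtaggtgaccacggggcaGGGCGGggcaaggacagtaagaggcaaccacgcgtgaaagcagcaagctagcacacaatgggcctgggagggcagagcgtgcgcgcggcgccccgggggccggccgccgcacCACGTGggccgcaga
The GC content was 60.9% for Ak4, 68.5% for Nek7, 71.2% for Hrh1 and 71% for Eif4h. Over all 32851 windows the median was 52.4% in the 250 bases before the start. The stretches of Ak4, Nek7 and Eif4h are shorter (238, 146 and 169 bases), and no median was taken over those bases. A GC box was matched in Nek7 (1 match), Hrh1 (2 matches) and Eif4h (1 match) and not in Ak4, and 28.4%, 32.7%, 19.3% and 31% of all windows held one over the same bases. Ak4 held 1 CCAAT box, as 32.9% of windows did over those bases, and Eif4h 1 E-box, as 3.36% did. None of the 4 stretches held a TATA box, which 7.43% to 12.4% of windows held over the same bases. No motif of the 4 searched was matched in every stretch.

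Ak4 (ENSMUSG00000028527; mm10, chromosome 4, 101419277 to 101466995, plus strand) was expressed at a low level in C_W, with an FPKM of 1.33 in C_W1, 1.67 in C_W64 and 2.02 in C_W70. In C_O it was 9.30 in C_O15, 10.4 in C_O30 and 12.2 in C_O72, so that all 3 krill oil libraries were above all 3 water libraries. The group means were 10.6 ± 1.46 (SD, n = 3) in C_O and 1.67 ± 0.341 (SD, n = 3) in C_W, a ratio of 6.34. In MS_W, Ak4 was at 1.53 in MS_W31, 6.68 in MS_W75 and 10.2 in MS_W95, and in MS_O it was at 1.57 in MS_O13, 0.649 in MS_O46 and 0.835 in MS_O78. The stressed groups overlapped only because MS_W31 was below MS_O13, by a small margin. The means were 6.13 ± 4.35 (SD, n = 3) in MS_W and 1.02 ± 0.485 (SD, n = 3) in MS_O, a ratio of 6.03 in favour of water. From highest to lowest the groups were ordered C_O, MS_W, C_W and MS_O, and each neighbouring pair in this order overlapped. In bulk tissue, fewer cells of a type and less RNA per cell cannot be told apart.

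The sequence of Ak4 has a near-identical copy in the table, the processed pseudogene Ak3l2-ps (chromosome 2, 72633936 to 72634607), and reads from the coding region could be assigned to either. All 672 bases of the pseudogene aligned to the coding sequence of Ak4 (stop codon included) with 3 differences, an identity of 99.6%. Each difference is shown in a stretch of 31 bases, with the differing base in capitals and the position counted from 1 at the first base of the coding sequence.
Ak4 around G36A: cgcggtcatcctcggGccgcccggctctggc
Ak3l2-ps around G36A: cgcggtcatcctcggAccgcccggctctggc
Ak4 around A285G: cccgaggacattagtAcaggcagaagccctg
Ak3l2-ps around A285G: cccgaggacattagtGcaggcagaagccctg
Ak4 around G378A: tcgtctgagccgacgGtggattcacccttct
Ak3l2-ps around G378A: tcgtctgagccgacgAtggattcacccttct
The FPKM of Ak3l2-ps was 2.20, 2.91 and 2.77 in C_W1, C_W64 and C_W70, and 2.64, 2.74 and 1.73 in C_O15, C_O30 and C_O72. It was 2.53, 1.15 and 4.93 in MS_W31, MS_W75 and MS_W95, and 1.95, 1.05 and 1.44 in MS_O13, MS_O46 and MS_O78. The pseudogene thus did not separate C_O from C_W, its estimated count was at most 231 in a library, and that of Ak4 was 533 to 794 in C_W and 3040 to 3429 in C_O. No other gene aligned to a transcript of any of the 4 genes over at least 200 bases at 90% identity or more.

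Nek7 (ENSMUSG00000026393; chromosome 1, 138482875 to 138620141, minus strand) was the gene that was low in every C_O library. Its FPKM was 5.80 in C_W1, 5.57 in C_W64 and 6.58 in C_W70, and 1.13 in C_O15, 0.874 in C_O30 and 1.56 in C_O72. The mean was 5.03 times as high in C_W (5.98 ± 0.532, SD, n = 3) as in C_O (1.19 ± 0.345, SD, n = 3), with no overlap. In stressed mice on water it was 4.53 in MS_W31, 4.89 in MS_W75 and 5.63 in MS_W95. In stressed mice on krill oil it was 0.913 in MS_O13 but 5.06 in MS_O46 and 5.37 in MS_O78. MS_O13 was therefore at the level of the C_O libraries, and the other MS_O libraries were within the range of MS_W. The groups were ordered C_W, MS_W (5.02 ± 0.558, SD, n = 3), MS_O (3.78 ± 2.49, SD, n = 3) and C_O, and each neighbouring pair overlapped.

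Hrh1 (ENSMUSG00000053004; chromosome 6, 114397936 to 114483296, plus strand) was close to the limit of detection in most libraries and rested on 13 to 879 estimated counts. Its FPKM was 0.118 in C_W1, 0.229 in C_W64 and 0.144 in C_W70. In C_O it was 1.08 in C_O15, 3.13 in C_O30 and 2.98 in C_O72, all above C_W, and the means were 2.40 ± 1.14 (SD, n = 3) and 0.164 ± 0.0582 (SD, n = 3), a ratio of 14.6. In MS_W it was 0.107 in MS_W31, 0.0662 in MS_W75 and 0.0639 in MS_W95. MS_O46, at 1.28, was the only stressed library in the range of C_O, and MS_O13 (0.0636) and MS_O78 (0.0397) were below every MS_W library. The groups were ordered C_O, MS_O (0.46 ± 0.708, SD, n = 3), C_W and MS_W (0.079 ± 0.0241, SD, n = 3). C_O overlapped MS_O, MS_O overlapped C_W, and C_W and MS_W did not overlap, and 8.22% of the tested genes were lower in MS_W than in C_W without overlap.

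Eif4h (ENSMUSG00000040731; chromosome 5, 134619721 to 134639490, minus strand) was the most abundant of the 4 genes, above 97.3% of the tested genes in mean FPKM. It was 75.1 in C_W1, 69.3 in C_W64 and 68.7 in C_W70. In C_O15 and C_O30 it was 29.4, while in C_O72 it was 72.9, within the range of C_W. All 6 stressed libraries were near the level of C_W, with 70.2, 68.6 and 77.3 in MS_W31, MS_W75 and MS_W95 and 72.0, 73.0 and 71.0 in MS_O13, MS_O46 and MS_O78. C_O72 is one of the pair of unlike libraries, and without it and MS_W95 the difference between C_O and C_W in mean log2(FPKM + 1) was -1.24, against -0.82 with them. The mean of the C_W libraries was 71 ± 3.52 and that of the C_O libraries 43.9 ± 25.1. The stressed groups were at 72 ± 4.64 on water and 72 ± 1.01 on krill oil (SD, n = 3 each), and the groups overlapped in each neighbouring pair.

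**Figure D1:**
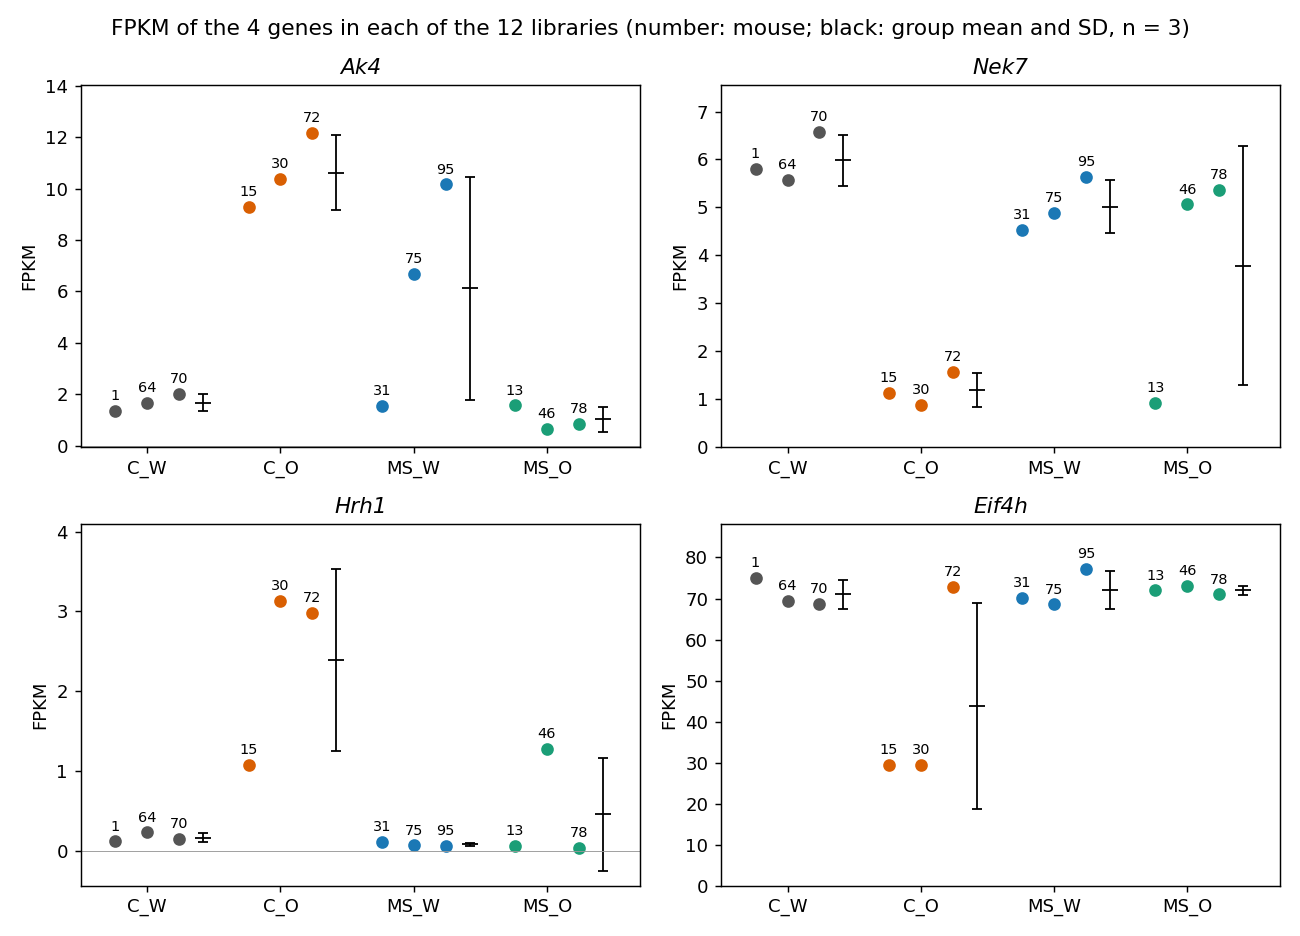
FPKM (vertical axis, linear) of Ak4, Nek7, Hrh1 and Eif4h in each of the 12 libraries, by group (horizontal axis), with 1 point per mouse marked by its number and the group mean and SD in black. The 3 C_O libraries sit at 9.30 to 12.2 for Ak4 and at 0.874 to 1.56 for Nek7, apart from C_W, while single stressed libraries (MS_W75 and MS_W95 for Ak4, MS_O13 for Nek7, MS_O46 for Hrh1) sit near the level of C_O.

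Ak4, Nek7 and Hrh1 were without overlap between C_O and C_W, as the choice of the genes fixed, and 9.42% of the 21393 tested genes were without overlap between these groups (4.08% higher and 5.34% lower in C_O). In mean log2(FPKM + 1), C_O minus C_W was 2.12 (SE 0.43) for Ak4, -1.68 (SE 0.38) for Nek7, 1.48 (SE 0.31) for Hrh1 and -0.82 (SE 0.28) for Eif4h. This scale understates the change of a low gene such as Hrh1. The difference between MS_O and MS_W used none of the C_O and C_W libraries and was tested for each gene in 1 limma fit over all genes. That fit took the spread from all 4 groups, so its SE, confidence interval and p also drew on C_O and C_W. With only the 2 stressed groups fitted, the Ak4 difference was the same and its limma adjusted p was 0.837.

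None of the 4 genes passed an adjusted p of 0.05 by limma between MS_O and MS_W, as 0.00467% of the tested genes did (1 gene, Mapt), and in none were these groups without overlap, which 12.3% of tested genes were. For Ak4, MS_O minus MS_W was -1.60 in mean log2(FPKM + 1) (SE 0.43, 95% confidence interval -2.56 to -0.64, limma adjusted p = 0.647). Its unadjusted p had rank 128 among the 21393 tested genes. An unadjusted p under 0.05 with a lower level in MS_O was found for 3.46% of the tested genes. The sign of the Ak4 difference was opposite to that in unstressed mice. The exact two-sided permutation test of 3 mice against 3, which cannot go below 0.1, gave p = 0.2. Of the 22 other fits and tests of Ak4 that gave an adjusted p, 2 passed the threshold: DESeq2 on the estimated counts, with a log2 fold change of -2.53 (SE 0.55, adjusted p = 0.00331) and 0.369% of genes called, and the limma fit without MS_W31, with -2.23 (adjusted p = 0.0398) and 0.00935% called. edgeR on the same estimated counts gave -2.52 with an adjusted p of 0.807. Without C_O72 and MS_W95, the difference was -1.15 (SE 0.41, limma adjusted p = 0.475), with 0.271% of genes called.

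For Nek7, MS_O minus MS_W was -0.52 (SE 0.38, 95% confidence interval -1.35 to 0.32, limma adjusted p = 0.837, exact permutation p = 0.7). The sign was that of unstressed mice, and it rested on MS_O13, without which the difference was 0.05. For Hrh1 it was 0.33 (SE 0.31, 95% confidence interval -0.36 to 1.03, limma adjusted p = 0.856, exact permutation p = 1), again with the sign of unstressed mice. It rested on MS_O46, without which it was -0.04, and on the count scale it was 2.48 (SE 0.95, DESeq2 adjusted p = 0.396). For Eif4h it was 0.001 (SE 0.28, 95% confidence interval -0.61 to 0.62, limma adjusted p = 1, exact permutation p = 1). Without C_O72 and MS_W95 the spread of Eif4h was smaller and the difference was 0.05 (SE 0.06, limma adjusted p = 0.871), against -1.24 between C_O and C_W in the same 10 libraries. C_O72 was the C_O library at the level of C_W, so its removal by itself widened that difference and narrowed the spread. The -1.24 rests on C_O15 and C_O30, which served to choose the gene, and is a description.

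The difference of the 2 krill oil differences, (MS_O minus MS_W) minus (C_O minus C_W), contains the contrast that chose the genes and is given without a test. It was -3.72 (SE 0.61) for Ak4, 1.17 (SE 0.53) for Nek7, -1.15 (SE 0.44) for Hrh1 and 0.82 (SE 0.39) for Eif4h. In each gene it had the sign opposite to C_O minus C_W. Stress against no stress was also given without a test, since it shares these libraries. MS_W minus C_W was 1.18 (SE 0.43) for Ak4, -0.22 (SE 0.38) for Nek7, -0.11 (SE 0.31) for Hrh1 and 0.02 (SE 0.28) for Eif4h. MS_O minus C_O was -2.55 (SE 0.43) for Ak4, 0.95 (SE 0.38) for Nek7, -1.25 (SE 0.31) for Hrh1 and 0.84 (SE 0.28) for Eif4h. Without C_O72 and MS_W95, MS_W minus C_W was 0.73 for Ak4 and -0.03 for Eif4h. In the same 10 libraries, MS_O minus C_O was 1.26 for Eif4h and its difference of differences 1.296, and the other values of the 4 genes kept their sign and moved by less than 1.5 times. Ak4 was the only one of the 4 genes without overlap between MS_O and C_O, and 3.29% of the tested genes were lower in MS_O without overlap.

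**Figure D2:**
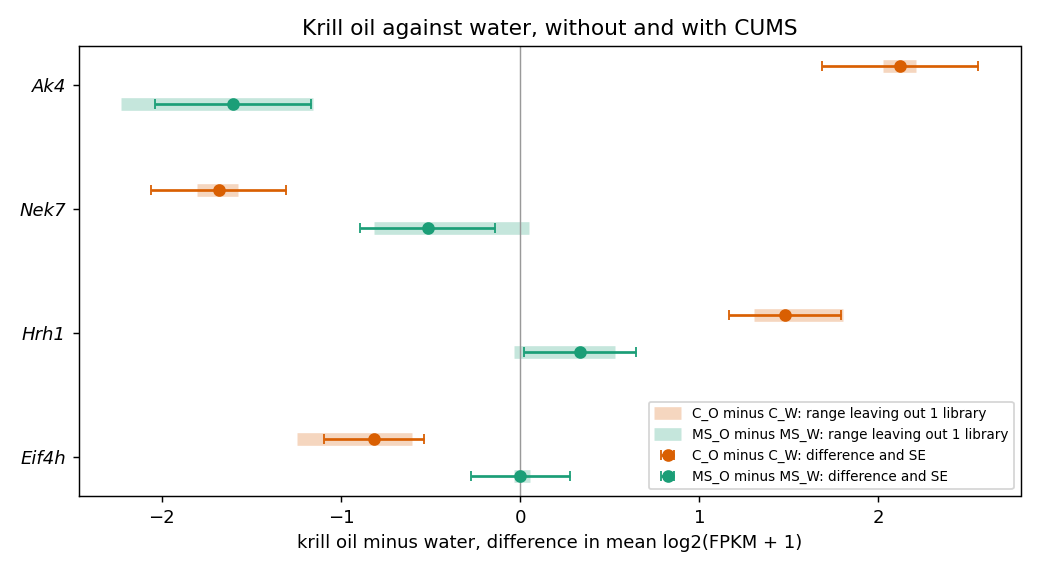
Difference between krill oil and water in mean log2(FPKM + 1) (horizontal axis) for the 4 genes (vertical axis), in unstressed mice (orange, C_O minus C_W) and in stressed mice (green, MS_O minus MS_W). Points are the differences with SE as bars, and pale bands span the values left when 1 library is left out; the band of MS_O minus MS_W stays below 0 for Ak4, from -2.23 to -1.15, and crosses 0 for Nek7, Hrh1 and Eif4h.

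Genes chosen as these were in unstressed mice gave a background for the stressed comparison. Of the tested genes, 32 were higher in C_O than in C_W without overlap and by at least 1 in mean log2(FPKM + 1), Ak4 and Hrh1 among them. Between MS_W and MS_O, 12 of the 32 had the same sign and 20 the opposite one, and the median difference was -0.20. None of the 32 was higher in MS_O without overlap, and 6 were lower without overlap. The difference was below -1 in 7 of them, Ak4 included, and above 1 in 1. A further 26 genes, Nek7 among them, were lower in C_O by the same criteria. For these the sign was the same in 8 and opposite in 18, the median difference was 0.25, 2 were lower in MS_O without overlap and 5 higher. The opposite sign was therefore the more frequent one among all genes that met these criteria, which Eif4h did not. A count of it over Ak4, Nek7 and Hrh1 is not particular to them. The counts include C_O72 and MS_W95, which were alike and lie in C_O and MS_W, and were not repeated without them.

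Each of the 4 genes had its own division of the libraries into higher and lower values. Ordered by FPKM, the largest ratio between neighbouring libraries was 3.31 for Ak4 (between 2.02 and 6.68), 2.91 for Nek7 (between 1.56 and 4.53), 4.71 for Hrh1 (between 0.229 and 1.08) and 2.33 for Eif4h (between 29.4 and 68.6). The spread within a set could be as wide as the step: the highest of the low values was 5.79 times the lowest for Hrh1 and 3.11 times for Ak4. Ak4 was high in 5 libraries (all of C_O, MS_W75 and MS_W95, 9.74 ± 2.01, SD) and low in 7 (1.37 ± 0.48, SD). Nek7 was low in 4 libraries (all of C_O and MS_O13, 1.12 ± 0.314, SD) and high in 8 (5.43 ± 0.627, SD). Hrh1 was high in 4 libraries (all of C_O and MS_O46, 2.12 ± 1.09, SD) and low in 8 (0.104 ± 0.0614, SD). Eif4h was low in C_O15 and C_O30 and high in the other 10 (71.8 ± 2.85, SD), where its coefficient of variation was 3.97%. These sets were formed from the values themselves, the C_O and C_W libraries that chose the genes included, and are a description. Over the 12 libraries, the correlation between pairs of the 4 genes in log2(FPKM + 1) was between -0.62 (Nek7 and Hrh1) and 0.65 (Nek7 and Eif4h), with the C_O libraries common to each pair.

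The genes whose log2(FPKM + 1) over the 12 libraries was most like each of the 4 were picked among the 13621 genes that averaged 1 FPKM or more, and the correlations share the libraries and are descriptions. For Ak4 they were Ralgds, Apip and Ggct (Pearson r of 0.83, 0.82 and 0.81), and the lowest r was that of Gm15706 (-0.88). Ralgds encodes an exchange factor for Ral GTPases, Apip an enzyme of methionine salvage and Ggct an enzyme of glutathione breakdown. The FPKM of Ralgds was 8.86 to 13.3 in the 5 libraries where Ak4 was high and 7.09 to 8.81 in the 7 where it was low, a much smaller step than in Ak4. For Nek7 they were Bbip1 (r = 0.92), Gm41662 (0.85) and Gnl2 (0.84), and Hacd2 was lowest (-0.78). Bbip1, a subunit of the BBSome that carries cargo to cilia, was at 2.09 to 2.63 in the 4 libraries where Nek7 was low and at 3.37 to 4.13 in the other 8. For Hrh1 they were Ramp2 (0.86), Zdhhc6 (0.84) and Ndufa12 (0.84), and mt-Atp6 was lowest (-0.89). Zdhhc6, a palmitoyltransferase, was at 2.99 to 3.25 in the 4 libraries where Hrh1 was high and at 2.24 to 2.74 in the other 8. For Eif4h they were Stx17 (0.96), Kxd1 (0.88) and Lsm7 (0.88), and Cbx6, a Polycomb protein, was lowest (-0.84). Stx17, a SNARE protein of autophagosomes, was at 1.72 in C_O15 and 1.15 in C_O30 and at 3.51 to 4.60 in the other 10 libraries, so its division was that of Eif4h. Cbx6 was at 24.3 to 25.0 in C_O15 and C_O30 and at 9.94 to 19.7 in the others.

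**Figure D3:**
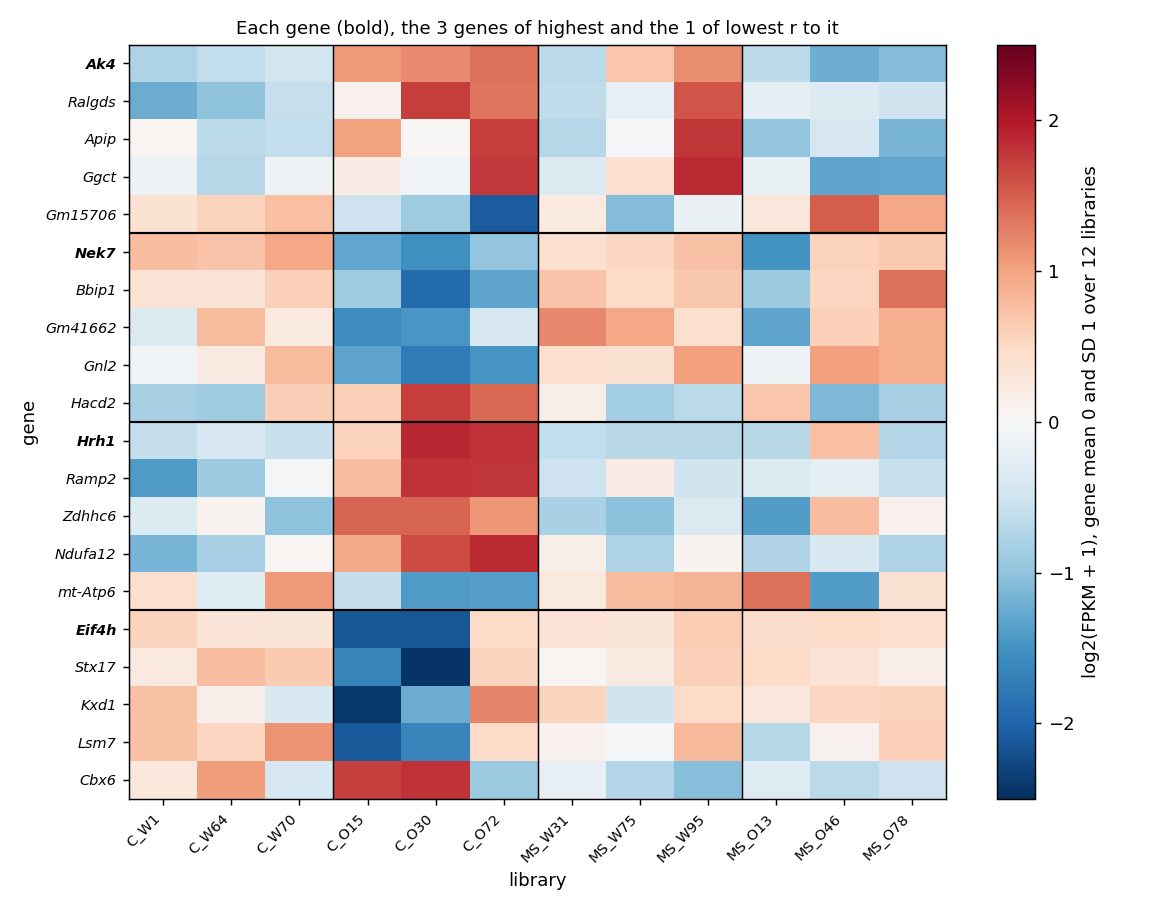
Heat map of log2(FPKM + 1), scaled to a mean of 0 and an SD of 1 over the 12 libraries, for each of the 4 genes (bold), the 3 genes of highest and the 1 gene of lowest Pearson r to it (rows), with the libraries in columns by group. Ak4 is high in 5 libraries, Nek7 low in 4, Hrh1 high in 4 and Eif4h low in 2, and the set of libraries differs from gene to gene.

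Of 7 expressed genes nearest to the 4 genes, 0 divided the libraries as the gene beside it did. The share of all tested genes that would do so was not computed, so this count is a description only. The 7 genes, which averaged 1 FPKM or more, were E130102H24Rik and Dnajc6 for Ak4, Zfp281 and 2310009B15Rik for Nek7, Atg7 for Hrh1, and Rfc2 and Limk1 for Eif4h. Dnajc6, 29636 bases beyond the end of Ak4, had mean FPKM of 56.5 ± 3.55 in C_W and 48.9 ± 8.6 in C_O (SD, n = 3 each). Rfc2, 17916 bases before Eif4h in genome order, was at 5.06 ± 0.224 in C_W and 5.15 ± 0.389 in C_O. For Rfc2 the spread within the groups was larger than this difference. Limk1, 16549 bases after Eif4h in genome order, was uneven, at 9.98 ± 0.984 in C_W and 16.2 ± 13.4 in C_O. It ranged from 4.61 to 31.6 FPKM over the 12 libraries. Inside the span of Nek7, the predicted genes Gm28501, Gm37101 and Gm37080 were at 0.037 FPKM or less in each library.

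The adenylate kinase family was the first of 4 lists of functionally related genes, in which 49 of 54 genes other than the 4 members were tested. In C_O minus C_W, 0 of these 49 passed an adjusted p of 0.05 by limma (0% of all tested genes did) and 0 had an unadjusted p under 0.05, against 3.55% of all tested genes. By DESeq2, 0 of the 49 passed there, while among all tested genes 38 passed as higher in C_O and 15 as lower. In MS_O minus MS_W, 0 passed the adjusted p by limma and 0 by edgeR. By DESeq2, 1 passed, against 0.369% of all tested genes. By limma, 4 had an unadjusted p under 0.05, all higher in MS_O, against 6.09% of all tested genes in either direction. That share is 1303 genes, of which 563 were higher in MS_O and 740 lower. Between C_O and C_W, 6 of the 49 were without overlap, against 9.42% of all tested genes: Maob, Eif4e2 and Eif4ebp2 were higher in C_O and Nek11, Casp1 and Hnmt lower. Between MS_O and MS_W, 6 were without overlap, against 12.3% of all tested genes: Ak1, Casp1 and P2rx7 were higher in MS_O and Ak3, Nlrp3 and Hdc lower. Of 9 adenylate and related nucleoside monophosphate kinases other than Ak4, 8 were tested. Their median difference was -0.03 in C_O minus C_W and -0.05 in MS_O minus MS_W, and over all tested genes it was 0.002 and -0.02. Ak1, the cytosolic isoform of brain and muscle, was at 41 ± 2.98 in MS_W and 53.3 ± 8.58 in MS_O (difference 0.36, SE 0.13, limma adjusted p = 0.79). Ak3, the matrix enzyme closest to Ak4, was at 26.8 to 47.7 FPKM. Ak3 had a difference of 0.26 (SE 0.17) in C_O minus C_W and of -0.21 (SE 0.17) in MS_O minus MS_W. Per kilobase, Ak4 was thus below Ak3 in every library, and also where it was high.

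Of 19 NIMA-related kinases and inflammasome genes other than Nek7, 17 were tested. The median difference was 0.06 in C_O minus C_W and -0.09 in MS_O minus MS_W, and the range in C_O minus C_W was -0.22 to 0.34. Nek6, the closest relative of Nek7, was at 2.67 to 3.81 FPKM over the 12 libraries, and Nek9, the kinase that activates both, at 10.4 to 16.5. Their differences in C_O minus C_W were 0.16 (SE 0.12) and 0.21 (SE 0.18). Nlrp3, the sensor that NEK7 binds, was at 0.0559 to 0.245 FPKM and lower in MS_O than in MS_W without overlap (difference -0.13, SE 0.07, limma adjusted p = 0.829), and Pycard, its adaptor, at 0.393 to 0.786. Casp1, the protease of the inflammasome, was at 0.496, 0.388 and 0.405 in MS_W31, MS_W75 and MS_W95 and at 0.536, 1.03 and 1.25 in MS_O13, MS_O46 and MS_O78. All MS_O libraries were above all MS_W libraries, with a difference of 0.42 (SE 0.12, limma adjusted p = 0.692), and Casp1 was the 1 gene of the 4 lists that DESeq2 called (log2 fold change 1.14, SE 0.30, adjusted p = 0.0461). In unstressed mice Casp1 was at 0.301 to 0.341 in C_O and 0.436 to 0.498 in C_W, a difference of the opposite sign (-0.15, SE 0.12, limma adjusted p = 0.908). In MS_O minus MS_W, Txnip, which binds NLRP3, had a difference of 0.61 (SE 0.28, limma adjusted p = 0.819). Its difference in C_O minus C_W was -0.20 (SE 0.28, limma adjusted p = 0.914).

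Of 10 genes of histamine synthesis, reception and removal other than Hrh1, 8 were tested. Hrh3, the presynaptic receptor, was far above Hrh1, at 5.71 to 36.7 FPKM, and was lowest in C_O72 (9.11) and MS_W95 (5.71). Hrh2 was at 1.62 to 3.84 FPKM, and Hrh4 was listed at the floor in each library. Hdc, the enzyme that makes histamine, was at 0.0439 to 0.944 FPKM and was highest in MS_W95. It was at 0.212 to 0.944 in MS_W and 0.0447 to 0.190 in MS_O, a difference of -0.35 (SE 0.18, limma adjusted p = 0.831). Hnmt, which inactivates histamine in the brain, was at 10.7, 8.27 and 9.16 in C_W1, C_W64 and C_W70 and at 7.55, 6.70 and 5.86 in C_O15, C_O30 and C_O72. The difference was -0.43 (SE 0.20, limma adjusted p = 0.908). Maob, which degrades a product of histamine methylation, was at 7.87 to 8.91 in C_W and 8.94 to 11.5 in C_O, a difference of 0.19 (SE 0.18, limma adjusted p = 0.908). In MS_O minus MS_W, Hrh2 had a difference of 0.41 (SE 0.19, limma adjusted p = 0.817) and Hnmt of -0.11 (SE 0.20). Slc29a4, a transporter that takes up histamine, had the widest difference of the list in C_O minus C_W, 1.13 (SE 0.60), with 17.9 FPKM in C_O72 and 17.0 in MS_W95 and at most 6.73 in the other libraries.

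All 16 genes of the cap-binding complex eIF4F and its regulators were tested, Eif4h left out. Their median difference was 0.005 in C_O minus C_W and 0.02 in MS_O minus MS_W. Eif4b, which stimulates eIF4A as Eif4h does, was at 43.1 to 56.1 FPKM, and its difference was -0.01 (SE 0.09) in C_O minus C_W and 0.01 (SE 0.09) in MS_O minus MS_W. Eif4a1, the helicase itself, was at 33.4, 38.0 and 25.6 in C_O15, C_O30 and C_O72 and at 38.0 to 40.7 in C_W, a difference of -0.29 (SE 0.15). Eif4g1, the scaffold, stayed between 32.8 and 36.7 FPKM in the 12 libraries. Eif4e, which binds the cap, was uneven within groups, at 5.65 in C_W1 and 4.76 in MS_O78 and at 10.2 to 16.5 in the other libraries. Eif4ebp3, an inhibitor of Eif4e, had a difference of 0.53 (SE 0.20, limma adjusted p = 0.79) in MS_O minus MS_W.

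**Figure D4:**
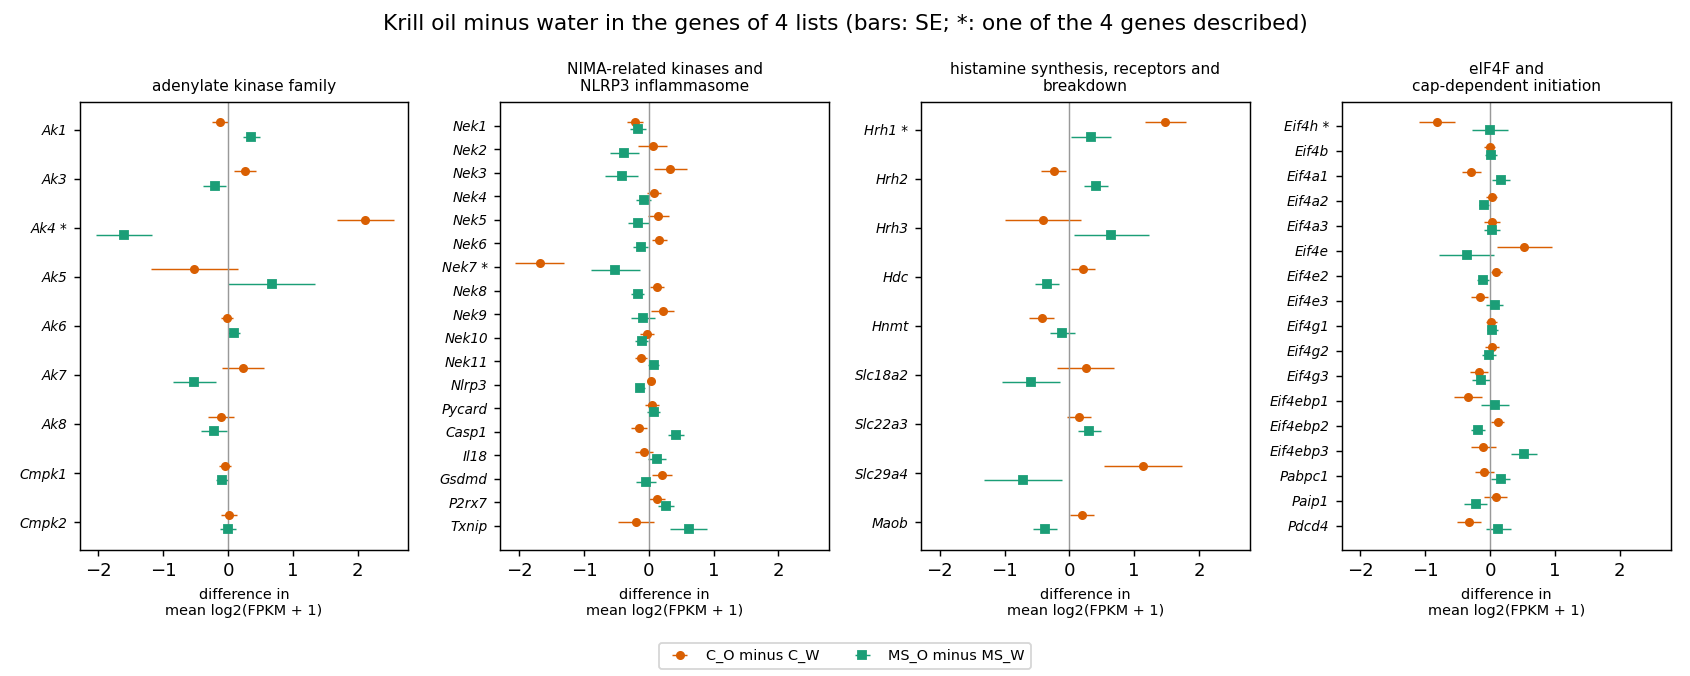
Difference between krill oil and water in mean log2(FPKM + 1) (horizontal axes, bars are SE) for the tested genes of 4 lists (rows), in unstressed mice (orange circles, C_O minus C_W) and stressed mice (green squares, MS_O minus MS_W). The 4 genes described here are starred and were chosen on C_O minus C_W, in which the adenylate kinases other than Ak4 span -0.52 to 0.26.

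The summed FPKM of some cell type and region markers also differed between the groups. Among single tested genes, 4.08% were higher in C_O than in C_W without overlap. Of 14 lists of 4 or 5 markers, 1 was higher in C_O than in C_W without overlap of the summed FPKM. This was the hypothalamic list, at 0.362 to 1.02 in C_W and 1.38 to 13.5 in C_O, in which Avp, Oxt, Hcrt and Pmch were at the floor in at least 1 library. For this list the widest range within a group was in MS_W, at 92.2 in MS_W31, 94.1 in MS_W75 and 1.42 in MS_W95. In MS_O it was at 1.78 to 3.05. The choroid plexus list was more uneven, at 2.14 to 835 in C_W and 3.07 to 4809 in C_O. It was at 2.96 to 1806 in MS_W and 5.77 to 617 in MS_O. The striatal list was at 148 in MS_W31, 219 in MS_W75 and 5.69 in MS_W95, at 6.31 in C_O72 and at 13.1 to 146 in the other libraries. Between MS_W and MS_O, 4 of the 14 lists did not overlap. Among single tested genes, 12.3% did not overlap between these groups. Neuronal markers were summed to 655 to 717 in MS_W and 783 to 865 in MS_O, and cortical markers to 44.9 to 135 and 224 to 265. Oligodendrocyte markers were summed to 374 to 626 in MS_W and 278 to 371 in MS_O, and cerebellar markers to 29.7 to 723 and 23.1 to 29.3. In both of these lists the lowest MS_W sum was close to the highest MS_O sum. The cerebellar 723 was that of MS_W95, against 33.9 in MS_W31 and 29.7 in MS_W75. The olfactory bulb list summed to 239 in MS_O46 and 255 in MS_O78, where Ak4 was lowest, and to 4.08 to 88.2 in the other libraries. The part of these markers in the values of the 4 genes was not tested.

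The values of the 4 genes are gene-level values and carry no isoform information. For each gene, the estimated count divided by the FPKM and by a factor per library, taken from 1112 genes with a single annotated transcript, gave a length that did not change between libraries. It was 4646 to 4694 bases for Ak4, 7376 to 7402 for Nek7 and 5550 to 5551 for Eif4h, and 4453 to 4461 for Hrh1 in the 4 libraries with at least 100 counts. The union of annotated exons in GENCODE M21 is 4646, 7376, 5551 and 4450 bases long for Ak4, Nek7, Eif4h and Hrh1. Ak4 has 7 annotated transcripts of 458 to 4360 bases, Nek7 has 4 of 2648 to 5258, Hrh1 has 5 of 476 to 3782 and Eif4h has 5 of 896 to 2726. In these values a shift between transcripts could not be told from a change in level. Within a gene, the estimated counts are therefore FPKM times a factor per library and are not a second measurement of its level.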

How the data were processed

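Poly(A) RNA of 12 whole brains, 3 per group, was sequenced as paired-end dUTP libraries. The FPKM values were deposited by the authors, who aligned reads with HISAT, assembled transcripts with StringTie, merged them with Perl scripts and estimated expression with StringTie and Ballgown, and the submitters' processing notes name cutadapt 1.9, HISAT2 2.0.4, StringTie 1.3.4d, edgeR, DESeq2 and mm10. The estimated counts in the same table were also deposited by the authors, unscaled between libraries. A gene without an estimate is listed at 0.0001. How reads with several alignments were assigned, and whether strand was used, is not given in the sources used here.

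The 4 genes, the gene and marker lists and the alternatives were chosen with earlier results of these data known. log2(FPKM + 1) of the 21393 genes that averaged 0.1 FPKM or more was fitted over the 4 groups together with limma 3.58.1 (lmFit and eBayes, trend on; R 4.3.3), with Benjamini-Hochberg adjustment over all of them. The fit was also run on simulated counts with a dispersion common to all genes and no unlike libraries. That run therefore does not cover libraries such as C_O72 and MS_W95. Members were tested only in MS_O minus MS_W, whose group means share no library with their choice. The spread of the fit over 4 groups also drew on the C_O and C_W libraries, so its SE, confidence interval and p are not fully separate from that choice. Genes named are the members, list genes, the 3 genes of highest and 1 of lowest Pearson r to each member, neighbours and copies. A few genes of the lists and neighbourhoods are not reported here and were left out of their counts. Alternatives were pseudocounts of 0.1 and 0.01, other filters, quantile normalization, median centring, 2-group fits, edgeR 4.0.16 and DESeq2 1.42.0 on estimated counts, exact permutation tests and leaving out libraries. Copies were searched with BLAST+ 2.17.0 among GENCODE M21 transcripts, and start-site windows are from RefSeq (GRCm38.p6).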

Additional observations from a re-analysis of the deposited data

How the results depend on the processing

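No paired analysis was possible because the replicate numbers are mouse numbers and no groups share one. The count of genes past an adjusted p of 0.05 in MS_O minus MS_W was 1 in the fit reported and 1 to 31 when 1 library was left out (31 without C_O72). It was 12 with only the 2 groups fitted, 79 by DESeq2 and 58 without C_O72 and MS_W95, and the cause was not tested. In the same comparison the 4 lists held 0 such genes, also when 1 library was left out, and 1 by DESeq2, and in C_O minus C_W they held 0 under all 22 alternatives. Leaving out 1 library gave -2.23 to -1.15 for Ak4 in MS_O minus MS_W, with a call only without MS_W31, and DESeq2 gave -2.53. It gave -0.82 to 0.051 for Nek7, reversed without MS_O13 (0.051), and -0.037 to 0.53 for Hrh1, reversed without MS_O46 (-0.037). For Eif4h it gave -0.033 to 0.052, reversed without MS_W31 (-0.016), MS_W75 (-0.033) and MS_O46 (-0.0088), all far below the SE. Under the remaining alternatives the 4 genes kept sign and side of the threshold. Hrh1 has no value at a mean FPKM of at least 1, since its mean was 0.775. As log2 ratios of estimated counts scaled to library totals, C_O over C_W was 2.66 for Ak4, -2.34 for Nek7, 3.84 for Hrh1 and -0.70 for Eif4h. With 3 mice per group the exact permutation test cannot go below 0.1, and Hrh1 rests on as few as 13 estimated counts in a library. The values of C_O minus C_W, MS_W minus C_W, MS_O minus C_O and the difference of differences without C_O72 and MS_W95 were added after seeing the data.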
